A study of Mus musculus with 7 samples.

Results

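The 33 genes described here make cholesterol and fatty acids in mouse cells or control that synthesis, and they were chosen by name out of 30590 rows of a bulk RNA-seq table. They comprise 7 enzymes of the mevalonate steps, 11 of the squalene and sterol steps, 6 regulators and sterol carriers and 9 fatty acid enzymes. All 33 were present, all 33 were tested, and the mean level of all 33 reached log2 of 11. The cells were a mouse embryonic stem cell line named Bry-GFP in the labels, and every group carries that reporter name. The 2 day 0 libraries came from cells grown on mouse embryonic fibroblast feeders with 15% fetal bovine serum and LIF at 1000 U/mL. The 2 day 2 libraries came from embryoid bodies, aggregates of differentiating cells, kept for 48 h in suspension in serum-free medium without feeders or LIF. The 2 day 4 libraries followed a further 48 h with Activin A (9 ng/mL), Noggin (150 ng/mL) and Wnt3a (25 ng/mL), which were given to induce primitive streak, and the single day 6 library followed 48 h with basic FGF at 10 ng/mL. All groups derive from 1 named line, and the labels call the replicates biological. Day 0 differs from the later days in serum, feeders, LIF and attachment at once, so the effects of these cannot be told apart.

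Cholesterol is built from acetyl-CoA through mevalonate, isoprenoid diphosphates, squalene and lanosterol, and fatty acids are built from the same acetyl-CoA through malonyl-CoA. The SREBP transcription factors, encoded by Srebf1 and Srebf2, are membrane proteins that SCAP carries from the endoplasmic reticulum to the Golgi for cleavage when membrane sterol is low, while the INSIG proteins hold SCAP back when sterol is high. Serum supplies cells with lipoprotein cholesterol and fatty acids, and most of the synthesis genes are known SREBP targets.

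Promoter sequence was matched for 26 of the 33 genes in the RefSeq promoter table (GRCm38.p6, 250 bases before to 50 after a start), which covers 27025 genes. The 5 windows below are the 160 bases before an annotated start that overlap no exon, and they were chosen to show the box shared by most of the genes (Hmgcs1, Mvk, Mvd and Fasn) beside that of a gene that did not rise, Insig2. Capitals mark CCAAT, the letters bound by NF-Y, on either strand, and TCANNCCA, a loose form of the SREBP element, on either strand. Hmgcs1 (chr13:119690191-119690350, plus strand), Mvk (chr5:114444109-114444268, plus strand), Mvd (chr8:122443423-122443582, minus strand), Fasn (chr11:120824548-120824707, minus strand) and Insig2 (chr1:121332590-121332749, minus strand) read 5′ to 3′ as follows.
Hmgcs1: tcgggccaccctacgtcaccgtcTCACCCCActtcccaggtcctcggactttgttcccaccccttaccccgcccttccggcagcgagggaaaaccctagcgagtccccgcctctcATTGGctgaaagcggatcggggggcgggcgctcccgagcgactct
Mvk: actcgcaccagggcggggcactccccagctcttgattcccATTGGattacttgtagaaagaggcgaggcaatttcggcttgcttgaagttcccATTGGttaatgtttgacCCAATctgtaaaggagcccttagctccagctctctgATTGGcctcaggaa
Mvd: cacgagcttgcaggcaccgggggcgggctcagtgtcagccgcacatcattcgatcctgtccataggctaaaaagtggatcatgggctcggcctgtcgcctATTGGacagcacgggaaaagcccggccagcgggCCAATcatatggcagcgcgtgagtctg
Fasn: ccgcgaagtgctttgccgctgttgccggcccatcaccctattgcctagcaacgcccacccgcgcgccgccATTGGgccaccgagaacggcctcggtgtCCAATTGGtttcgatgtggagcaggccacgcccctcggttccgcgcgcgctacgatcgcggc
Insig2: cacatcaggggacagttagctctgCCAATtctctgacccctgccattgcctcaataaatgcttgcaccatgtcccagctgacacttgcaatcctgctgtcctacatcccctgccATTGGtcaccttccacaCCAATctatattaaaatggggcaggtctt
In Fasn a pair of CCAAT boxes on opposite strands overlap.

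Over the whole 300-base window and both strands, CCAAT was found in 21 of 26 members (80.8%) against 41.1% of all 27025 genes, and at least 2 copies in 11 of 26 against 13.3%. By role, the box was found in 9 of 9 squalene and sterol genes, 5 of 6 mevalonate genes, 4 of 5 regulators and 3 of 6 fatty acid genes with a sequence. TCANNCCA was found in 6 of 26 (23.1%) against 17.6% of all genes, and the strict form TCACNCCAC in 1 of 26, Hmgcs1, against 1.44%. GGGCGG, a Sp1 box, was found in 22 of 26 (84.6%) against 38.2% of all genes and 57.8% of the genes tested here. CACGTG, an E-box, was found in 5 of 26 (19.2%) against 8.09% of all genes and 10.2% of the genes tested here. A match is a description of the letters in this window. Insig2, whose level did not rise, carries 3 CCAAT copies in the window shown, which lies before the first of its 3 listed starts. The windows before its other listed starts hold 0 CCAAT copies, and which start the cells used was not tested.

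Levels are log2 of 1 plus scaled reads, the deposited natural log values put on a log2 scale. Rough depth, from the steps between low values, was between 2.70e+06 and 5.61e+06 reads per library, and 3 reads correspond to a level between 1.45 and 2.30. The lowest level of any member in any library was 3.48, above that floor in all libraries. Differences between days were tested with limma over all 21813 genes with any reads, with a Benjamini-Hochberg adjusted p threshold of 0.05. Several members share exon sequence with a neighbour, and whether the counting used strand is not stated in the sources used here. A neighbour lies on the other strand for Hmgcs1, Idi1, Fdft1, Lss, Cyp51, Srebf1, Scap, Acss2 and Elovl6. A neighbour lies on the same strand for Fdps (Gm43738), Tm7sf2 (Vps51), Srebf1 (Mir6922) and Scd2 (Mir5114). Scd1 and Scd2 are near copies of each other, and the values of all these genes carry that uncertainty.

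Most of the list rose over the first 48 h, in serum-free suspension culture. From day 0 to day 2, 27 of the 33 members rose and 0 fell, where 5.76% of all genes tested rose and 6.2% fell. The rise took in all 7 mevalonate genes, 8 of 11 squalene and sterol genes, all 9 fatty acid enzymes and 3 of 6 regulators. The median difference over the 33 was 1.58 (log2) against 0.05 over all genes tested and 0.14 over the 11800 genes whose mean reached log2 of 11. Both day 2 libraries lay above both day 0 libraries for 30 of 33 members, as they did for 28.6% of all genes. Scap lay below, and Insig2 and Srebf1 overlapped.

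**Figure D1:**
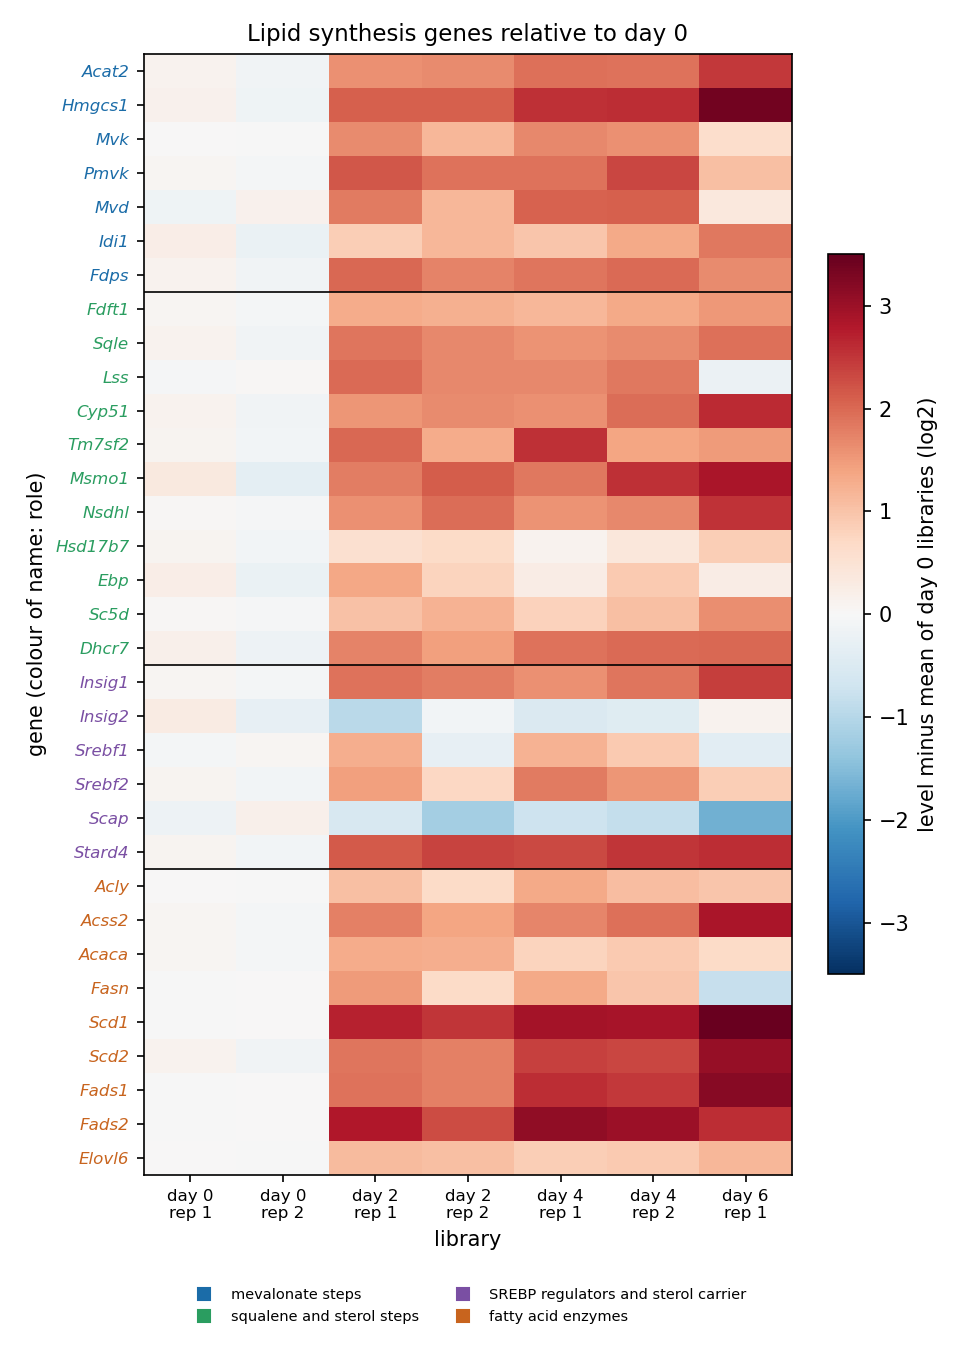
Level of each of the 33 genes (rows, grouped by role) in each of the 7 libraries (columns) minus the mean of the day 0 libraries, as a log2 difference on a colour scale from -3.5 to 3.5. Most rows turn red at day 2 and stay red, Scap turns blue, and Lss and Fasn return to or below their day 0 level in the day 6 library.

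Among the mevalonate genes, Hmgcs1, the cytosolic HMG-CoA synthase, stood at 10.00 and 9.68 (day 0), 11.95 and 11.93 (day 2), 12.40 and 12.44 (day 4) and 13.23 (day 6). Both day 2 values lay above both day 0 values, a 4.27-fold rise (SE 0.12 on the log2 scale, adjusted p = 0.000614, limma). Pmvk, phosphomevalonate kinase, went from 5.77 and 5.64 to 7.87 and 7.62 (4.10-fold, SE 0.21, adjusted p = 0.00309, limma). Fdps, which makes farnesyl diphosphate, went from 8.74 and 8.48 to 10.63 and 10.36 (3.68-fold, SE 0.15, adjusted p = 0.00127, limma). In each of the 3 genes the day 0 and day 2 libraries were well apart. Acat2, the cytosolic thiolase that starts the pathway, rose by a log2 of 1.62, Mvd, the mevalonate diphosphate decarboxylase, by 1.49, Mvk, mevalonate kinase, by 1.41 and Idi1, the isopentenyl diphosphate isomerase, by 1.01.

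The squalene and sterol genes rose by amounts close to those of the mevalonate genes, with medians of 1.60 and 1.62 (log2). Sqle, squalene epoxidase, stood at 8.46 and 8.23 (day 0), 10.22 and 10.04 (day 2), 9.93 and 9.99 (day 4) and 10.27 (day 6). All of its libraries after day 0 lay close together and above both day 0 libraries, and its difference by day 2 was 1.79 (log2). Msmo1, the methylsterol monooxygenase, went from 7.37 and 6.68 to 8.81 and 9.13 (3.86-fold, SE 0.31, adjusted p = 0.0117, limma). Lss, lanosterol synthase, rose by 1.83, Nsdhl, a sterol dehydrogenase, by 1.77, Cyp51, the lanosterol demethylase, by 1.60, Dhcr7, the 7-dehydrocholesterol reductase, by 1.58, Fdft1, squalene synthase, by 1.27 and Sc5d, a sterol desaturase, by 1.12. The other 3 did not pass the threshold: Tm7sf2, a sterol reductase, differed by 1.65 (adjusted p = 0.0695, limma), Hsd17b7, a ketosteroid reductase of the pathway, by 0.62 (adjusted p = 0.0696) and Ebp, the sterol isomerase, by 1.08 (adjusted p = 0.12).

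The regulators divided. Insig1 stood at 7.99 and 7.86 (day 0), 9.82 and 9.71 (day 2), 9.53 and 9.80 (day 4) and 10.35 (day 6), a 3.58-fold rise from day 0 to day 2 (SE 0.14, adjusted p = 0.00107, limma). Its relative Insig2 stood at 7.22 and 6.67, then 6.00 and 6.84, then 6.43 and 6.52, then 7.08. The Insig2 libraries of day 0 and day 2 overlapped, and the difference of -0.52 did not pass the threshold (adjusted p = 0.388, limma). Per kilobase of exon, the ratio of Insig1 to Insig2 was 1.92 and 2.57 on day 0 and between 8.28 and 16 in the 5 later libraries, so its range did not overlap that of day 0.

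Srebf2, the SREBP most tied to sterol synthesis, stood at 8.92 and 8.71 (day 0), 10.24 and 9.54 (day 2), 10.62 and 10.37 (day 4) and 9.68 (day 6). Its difference from day 0 to day 2 was 1.08 (adjusted p = 0.0331, limma), and between 0.72 and 1.43 when 1 replicate was left out. In the other alternative runs the adjusted p of this difference ran from 0.00145 to 0.111 (limma). Srebf1, the SREBP most tied to fatty acid synthesis, stood at 6.13 and 6.26, then 7.48 and 5.91, then 7.42 and 7.11, then 5.82. The day 2 replicates of Srebf1 lay on either side of day 0, and its difference of 0.50 did not pass (adjusted p = 0.575, limma). Scap went from 8.04 and 8.38 to 7.65 and 7.02, a difference of -0.88 that did not pass (adjusted p = 0.0702, limma), and stood lowest, at 6.54, in the day 6 library. With the GC-corrected levels described below, Scap stood at 7.144 on day 6, beside 7.146 and 7.175 on day 4. Stard4, a carrier of cholesterol between membranes, went from 7.48 and 7.26 to 9.52 and 9.72 (4.76-fold, SE 0.15, adjusted p = 0.000833, limma), above every other regulator in its rise.

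**Figure D2:**
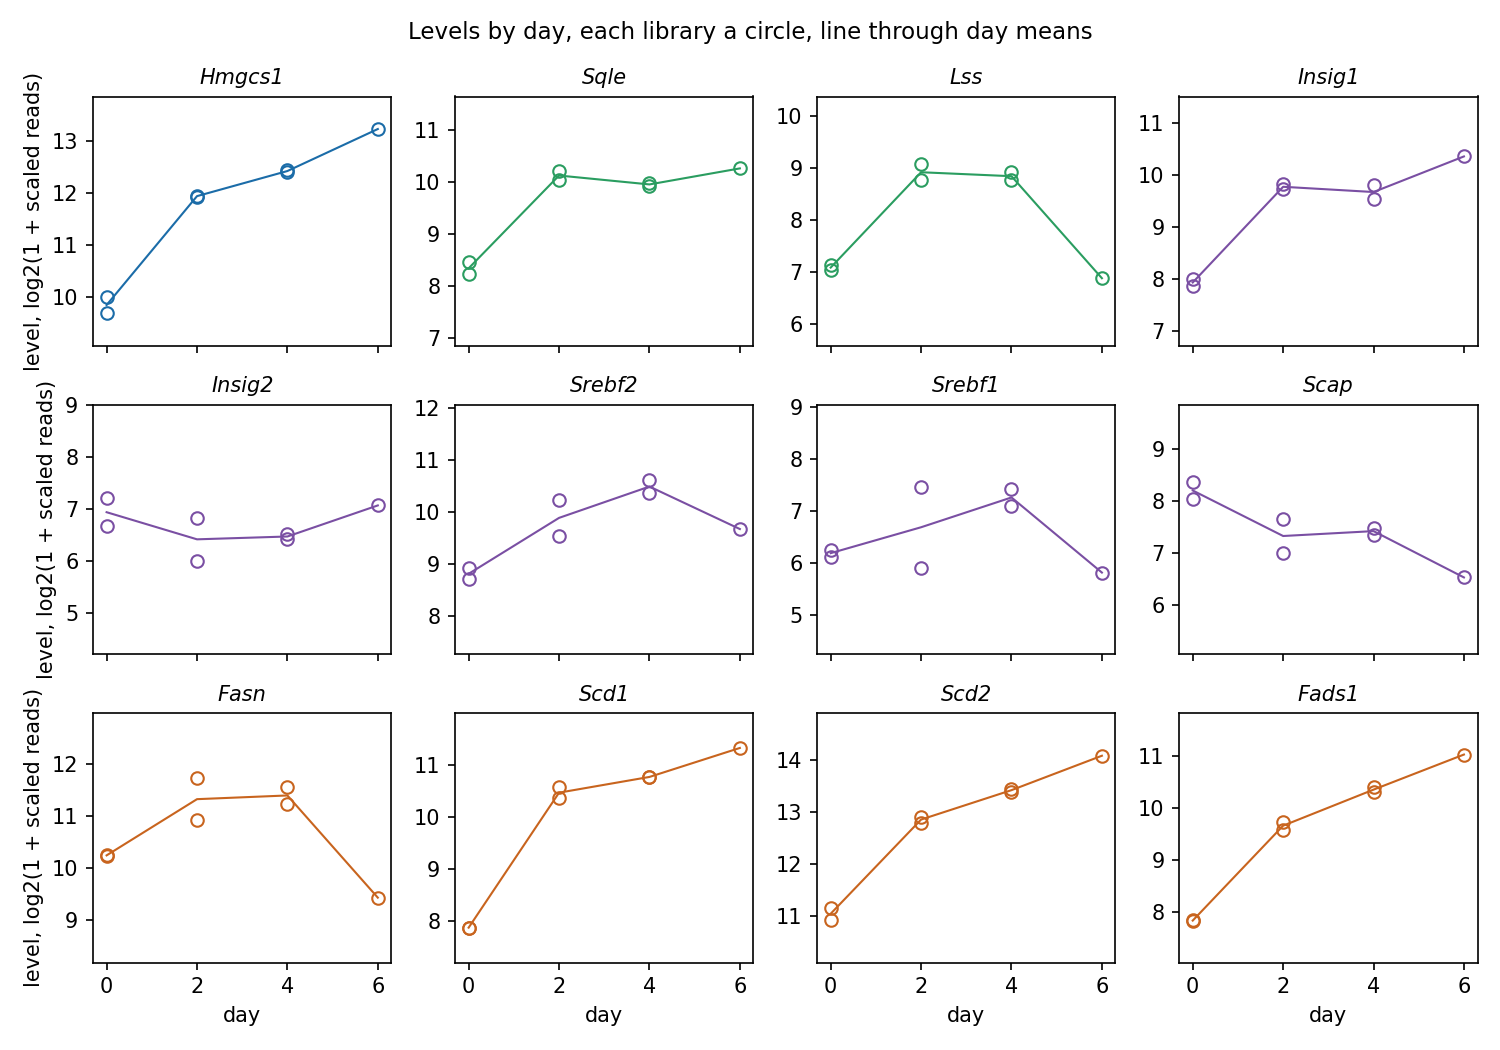
Level (log2 of 1 plus scaled reads) of 12 of the genes by day of culture, each library an open circle and the line passing through the day means, with every panel spanning the same number of log2 units. Hmgcs1, Scd2 and Fads1 climb at each step, Lss and Fasn drop in the single day 6 library, and the day 2 replicates of Srebf1 lie far apart.

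Among the fatty acid enzymes, Scd1 and Fads2 had the largest rises of all 33 genes. Scd1, a stearoyl-CoA desaturase, stood at 7.87 and 7.87 (day 0), 10.57 and 10.36 (day 2), 10.78 and 10.76 (day 4) and 11.33 (day 6), a 6.05-fold rise by day 2 (SE 0.11, adjusted p = 0.000496, limma). Fads2, the delta-6 desaturase of polyunsaturated fatty acids, went from 6.75 and 6.77 to 9.56 and 9.05 (5.84-fold, SE 0.18, adjusted p = 0.00101, limma). Scd2, a close relative of Scd1, stood at 11.16 and 10.92, then 12.91 and 12.79, then 13.44 and 13.39, then 14.08, with a difference of 1.81 by day 2. The 3 genes had no overlap between day 0 and any later library. Per kilobase of exon, Scd2 exceeded Scd1 8.79-fold and 7.43-fold on day 0 and between 4.53-fold and 6.03-fold later.

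The other fatty acid enzymes rose by between 0.86 and 1.83. Fads1, the delta-5 desaturase, rose by 1.83, and Acss2, which makes acetyl-CoA from acetate, by 1.57. Acaca, the acetyl-CoA carboxylase, rose by 1.29, Elovl6, an elongase of palmitate, by 1.07 and Acly, which makes cytosolic acetyl-CoA from citrate, by 0.86. Fasn, the fatty acid synthase, stood at 10.22 and 10.25 (day 0), 11.72 and 10.91 (day 2), 11.56 and 11.22 (day 4) and 9.42 (day 6). Its day 2 replicates lay far apart, both above day 0, and its difference of 1.08 passed narrowly (adjusted p = 0.0432, limma) and was 0.67 without day 2 replicate 1.

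The number of members called from day 0 to day 2 rested on having all libraries. Leaving out day 0 replicate 1 gave 8 members where 2.6% of all genes were called, and replicate 2 gave 2 where 0.655% were. Day 2 replicates 1 and 2 gave 14 and 16, where 1.33% and 1.83% of all genes were called, and day 4 replicates 1 and 2 gave 0 and 17, where 0% and 3.22% were. Between 23 and 32 of the 33 members had an unadjusted p under 0.05 in these fits, against 20.8% to 26.6% of all genes. All 27 kept their sign in every alternative run.

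Markers of feeder fibroblasts moved with the same step. All 12 of 12 fell from day 0 to day 2 (median -3.93), where 5.76% of all genes rose and 6.2% fell. Their summed level was 14.56 and 14.80 on day 0, between 10.30 and 10.90 on days 2 and 4 and 11.17 on day 6. None of the 12 was at 0 in any library. Of 8 pluripotency markers 4 fell and 0 rose, beside the same shares of all genes. Their summed level was 13.84 and 13.64 on day 0 and 13.27 and 13.12 on day 2. In bulk samples fewer cells of a type and less RNA per cell cannot be told apart, and no source used here states whether feeder cells were in the day 0 RNA. The part of the feeders in the rise of the 33 genes was not tested. From day 0 to day 4, 3 of 6 primitive streak markers, 6 of 6 neural progenitor markers and 3 of 6 endoderm markers rose, where 11.3% of all genes rose.

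**Figure D3:**
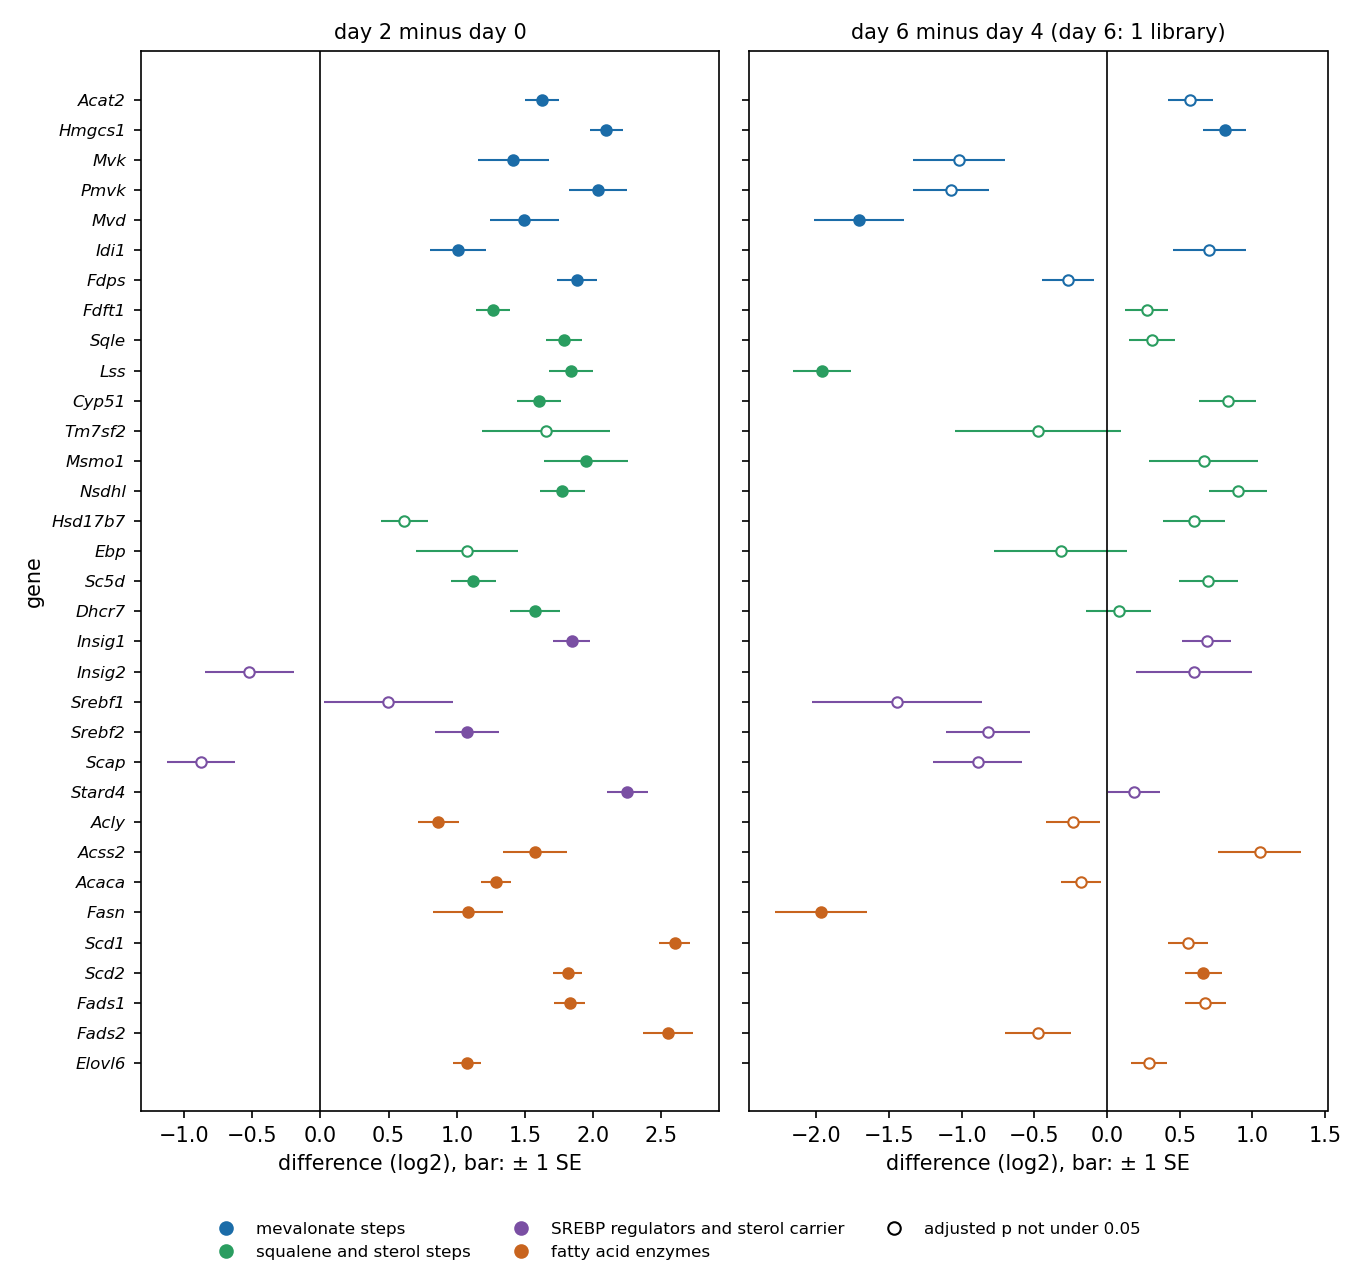
Difference in level of each of the 33 genes from day 0 to day 2 (left) and from day 4 to day 6 (right), in log2 units with bars of 1 SE from limma. Filled circles have an adjusted p under 0.05, which 27 genes reach on the left and 5 on the right.

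Other lipid genes, read from lists outside the 33, did not move as a block from day 0 to day 2. Of 9 partners of SREBP processing and sterol sensing 0 passed the threshold, and of 11 genes of the isoprenoid branch 0 passed. Of all genes tested 5.76% rose and 6.2% fell, and for lists this short 0 is near those shares. Of 16 genes of sterol uptake, export and LXR signalling 3 rose and 4 fell. Lrp8, a lipoprotein receptor, went from 6.00 and 5.60 to 7.45 and 7.99, while Abca1, the cholesterol exporter and LXR target, went from 8.02 and 8.31 to 5.87 and 5.78, with no overlap in either gene. The difference was 1.92 for Lrp8 (adjusted p = 0.007) and -2.34 for Abca1 (adjusted p = 0.00425, limma). Ch25h, which makes 25-hydroxycholesterol, was at 3.54 and 3.19 on day 0 and listed at 0 in both day 2 libraries.

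The counts of the next 3 lists stand beside the same shares, 5.76% of all genes higher and 6.2% lower. Of 17 other genes of fatty acid synthesis, elongation and desaturation 4 rose and 1 fell. Elovl2, an elongase of polyunsaturated fatty acids, rose by 2.67 and Acsl3, an acyl-CoA synthetase, by 1.48, and Fads3, a desaturase relative, fell by 2.78. Of 10 genes of glycerolipid assembly 1 rose, Gpam, by 0.88. Of 15 genes of fatty acid oxidation 1 rose, Hadh, by 0.72, and 2 fell, Cpt1a, which admits fatty acids to mitochondria, by 1.82 and Acadvl, the very-long-chain dehydrogenase, by 1.79.

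Few genes passed the threshold while the primitive streak factors were present, among the members as among all genes. From day 2 to day 4, 2 of 33 rose and 0 fell, where 1.45% of all genes rose and 2.13% fell, and 7 members had an unadjusted p under 0.05, as had 21.6% of all genes. Fads1 went from 9.73 and 9.58 to 10.40 and 10.30, a difference of 0.69 (SE 0.12, adjusted p = 0.0312, limma). Scd2 differed by 0.57 (SE 0.10, adjusted p = 0.0421, limma). Both genes had separate libraries on the 2 days, and neither passed when any 1 replicate was left out. Between 3 and 11 members had an unadjusted p under 0.05 in those fits, where 0% of all genes were called and 16.2% to 23.8% had such a p. With GC-corrected levels 3 members rose, where 2.63% of all genes rose and 3.01% fell, and the gene gained was Hmgcs1 (0.61, adjusted p = 0.0331, limma). Both day 4 libraries lay above both day 2 libraries for 10 members, as for 20.9% of all genes, and libraries overlapped for 19 members, among them Lss, Cyp51, Insig1 and Fasn.

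Measured against day 0, day 4 kept the higher level. Both day 4 libraries lay above both day 0 libraries for 31 members, as for 30.4% of all genes. By limma 28 of 33 members were higher and 0 lower, where 11.3% of all genes were higher and 10.4% lower, a comparison that shares its libraries with those above. The 5 not called were Hsd17b7, Ebp, Insig2, Srebf1 and Scap. By the deposited levels the largest difference was that of Fads2 at 3.05, followed by Scd1 at 2.90, Hmgcs1 at 2.58 and Fads1 at 2.52. The count was between 4 and 29 when 1 replicate was left out, lowest without day 4 replicate 1 (0.754% of all genes called), and it was 9 without day 0 replicate 2 (5.42%) and 14 without day 0 replicate 1 (6.83%). With GC-corrected levels 28 were higher and Scap was lower (-1.01, adjusted p = 0.00425, limma), where 12.9% of all genes were higher and 12.7% lower. Over the 4 days together, limma's F test called 28 of 33 members and 28.6% of all genes. Without 1 replicate this count was 6 or 0 (day 0 replicate 1 or 2), 29 (either day 2 replicate) and 0 or 19 (day 4 replicate 1 or 2), while the share of all genes ran from 0% to 19.4%.

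The single day 6 library split the list, lying above both day 4 libraries for 19 members, below both for 12 and between them for Tm7sf2 and Ebp, where 38% of all genes lay above and 29.1% below. From day 4 to day 6, 2 members rose and 3 fell, where 1.27% of all genes rose and 3.18% fell, assuming for day 6 the replicate spread of days 0 to 4. Lss went from 8.77 and 8.93 to 6.89 (log2 difference -1.96, SE 0.20, adjusted p = 0.0144, limma). Fasn went from 11.56 and 11.22 to 9.42 (-1.97, SE 0.32, adjusted p = 0.0305, limma), and Mvd from 8.05 and 8.07 to 6.35 (-1.71, SE 0.31, adjusted p = 0.0407, limma). Lss and Fasn thereby lay below both day 0 libraries, and Mvd just above them. Hmgcs1 rose by 0.81 (SE 0.15, adjusted p = 0.0412, limma) and Scd2 by 0.66 (SE 0.13, adjusted p = 0.0453, limma), each to its highest level of the course. None of these calls held in every fit with 1 replicate left out, where fewer of all genes were called as well. Over those fits Lss differed by between -2.04 and -1.88, Fasn by between -2.137 and -1.795 and Mvd by between -1.72 and -1.70. Hmgcs1 differed by between 0.79 and 0.83 and Scd2 by between 0.64 and 0.69. Against day 0, the day 6 level was above both libraries for 28 members, below both for Lss, Srebf1, Scap and Fasn, and between them for Insig2, where 40.9% of all genes lay above and 36% below. With GC-corrected levels, described next, Srebf1 joined those above, which made 29, and Lss, Scap and Fasn stayed below. Of the 16 genes of sterol uptake, export and LXR signalling 1 rose and 2 fell from day 4 to day 6, beside 1.27% and 3.18% of all genes. Vldlr, a lipoprotein receptor, rose by 2.06 and Nr1h2, which encodes LXR beta, fell by 4.21 to 1.49, under the level of 3 reads. The coding transcripts of Nr1h2 have a mean GC of 60.91%, and with GC-corrected levels the lowest difference in that list was -3.16.

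The day 6 differences followed the GC content of the transcripts. Across the 33 genes, which are not independent replicates and share the same libraries, the difference from day 4 to day 6 had a Pearson r of -0.711 and a Spearman rho of -0.74 with the mean GC of the coding transcripts, and across 11344 genes -0.513 and -0.574. The 10 members of highest GC, between 53.6% and 59.57%, had a median difference of -0.96, and 9 of them were negative. The 23 of lower GC had a median of 0.60, and 18 were positive. From day 0 to day 2 the r was -0.156 across the members. Between the day 2 replicates, which share a condition, it was 0.808.

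**Figure D4:**
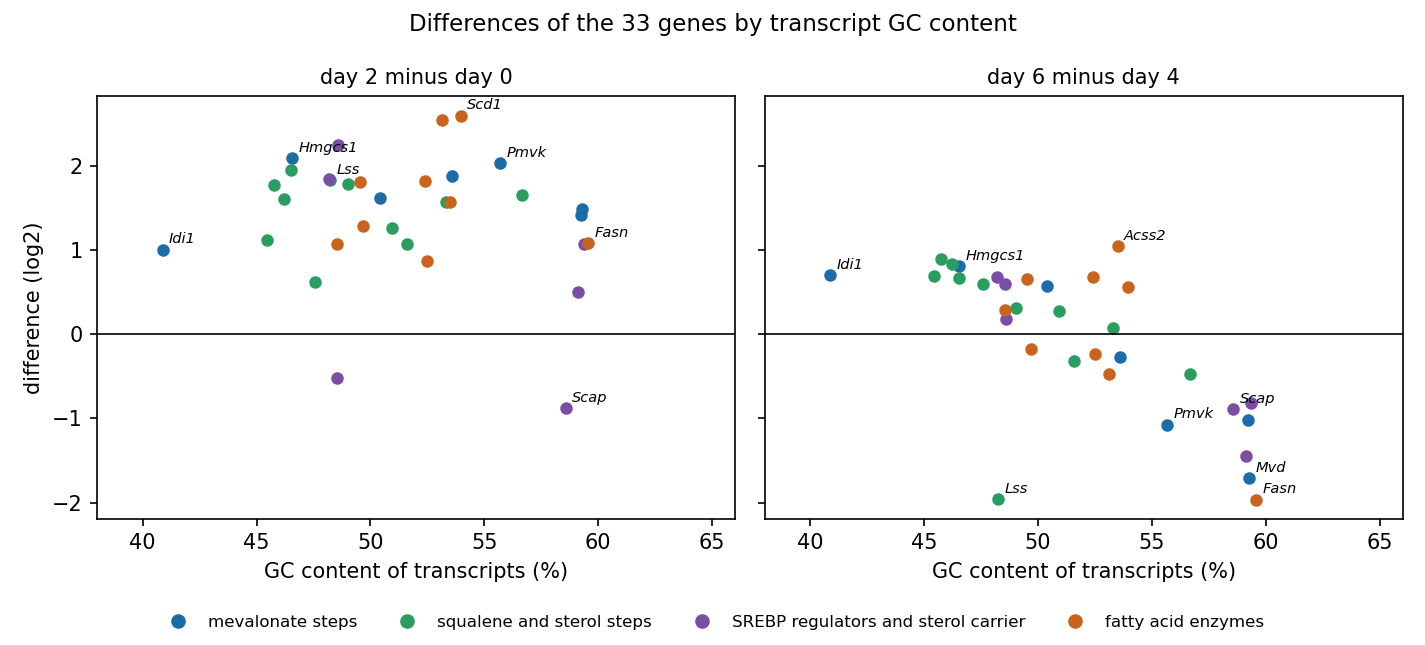
Log2 difference of each of the 33 genes from day 0 to day 2 (left) and from day 4 to day 6 (right) against the mean GC content (percent) of its coding transcripts, coloured by role. The left panel shows no slope (r of -0.156), while in the right panel the genes of high GC lie low (r of -0.711) and Lss lies apart from genes of like GC.

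Levels with each library's smooth GC trend removed, an alternative chosen after seeing the data, gave 28 higher and 1 lower from day 0 to day 2, where 6.82% of all genes were higher and 8.04% lower, the lower gene being Scap (-0.83, adjusted p = 0.0158, limma). They left the day 6 calls to depend on how GC was defined, and 2 definitions were tried in turn. With the mean over coding transcripts, tried first, 3 rose (Acss2, Scd1 and Fads1) and 2 fell (Lss and Fasn), where 0.862% of all genes rose and 2.31% fell. With the longest coding transcript, tried after those results were seen, 1 rose (Fads1) and 2 fell (Lss and Fasn), where 0.683% rose and 2.23% fell. Lss differed by -2.20 and -1.77 under these (adjusted p = 0.00727 and 0.00769), Fasn by -1.01 and -1.09 (adjusted p = 0.0196 and 0.0216) and Fads1 by 0.82 and 0.87 (adjusted p = 0.0203 and 0.0176, limma). Scd1 moved from 0.90 to 0.31, as its GC is 53.97% by the first definition and 47.14% by the second. Hmgcs1, Scd2 and Mvd passed under neither, at 0.46 and 0.33, 0.52 and 0.59, and -0.77 and -0.70. Whether GC content or the day sets the difference cannot be told apart with 1 library.

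The genes whose profile over the 7 libraries was most like the mean of the 18 mevalonate, squalene and sterol members included Fras1 (Pearson r 0.997), Epb4.1l5 (0.996), Glra1 (0.994), Epha7 (0.991), Spats2 (0.991), Pipox (0.991) and Cat (0.990), out of 11767 genes compared. These correlations rest on the same libraries that hold the day 0 to day 2 step and are given as a description.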

How the data were processed

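RNA was measured by polyadenylated RNA-seq in 7 libraries. The authors deposited 1 table of natural log values. From the values, they are inferred to be of scaled reads plus 1, quantile normalized. All 7 value columns were mapped, with 0 unmapped. One column name has a letter O where the label has a zero and was taken as day 0 replicate 2. Per the submitters' processing notes, the genome was GRCm38. No source used here names the aligner, counter or annotation. Quantile normalization forces equal distributions, so global shifts in RNA cannot be seen.

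The values were divided by the natural log of 2. The 8674 genes at 0 everywhere and 103 foreign rows were left out, and 21813 were tested with limma-trend, robust (limma 3.58.1, R 4.3.3), on all 7 libraries fitting each day's mean (3 residual degrees of freedom). The script was tested on simulated data. P-values were Benjamini-Hochberg adjusted over all genes. All members could be named, with full statistics for up to 8 called members of largest change per comparison, up to 3 called genes per other list, and the 10 non-members of most similar profile. The members and lists were chosen with earlier results of these data known. Gene models came from GENCODE M21. GC was the mean over coding transcripts, and the GC of the longest one was tried after those results had been seen. Alternatives were a replicate block, median centring, a pseudocount of 5, a filter on low values, no trend, fewer days and leaving out each replicate.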

Additional observations from a re-analysis of the deposited data

How the results depend on the processing

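Libraries of the same replicate number also share a column tag, whose meaning the labels do not give, and the numbers were not taken as pairs because only 1 of 3 correlations passed 0.1. Deviations of same-numbered libraries correlated at -0.0582 (days 0 and 2), -0.0662 (days 0 and 4) and 0.222 (days 2 and 4) over 11800 genes. With the replicate block, 28 members were higher from day 0 to day 2 (10.3% of all genes called), 2 from day 2 to day 4 (2.6%) and 28 from day 0 to day 4 (19.7%), 29 were called on any day (23.3%), and 2, both lower, in place of 5 from day 4 to day 6 (2.78%). That day 6 count was 13 with the low-value filter, which tests fewer genes (9 higher, 4 lower, 18.6% of all genes called), 1 lower without trend and robust moderation (2.79%), 0 with only the days compared (0%, 15 at an unadjusted p under 0.05, limma), 5 with GC correction on the mean of the coding transcripts (3.17%) and 3 on the longest transcript (2.92%). Both GC corrections, the second chosen after the first had been seen, were added after seeing the data. Without trend, 0 members were called by limma from day 2 to day 4 (1.54% of all genes called), with 4 at an unadjusted p under 0.05 (19.7% of all genes). Leaving out 1 replicate gave 0 to 17 members for day 2 against day 0, 0 to 0 for day 4 against day 2, 0 to 2 for day 6 against day 4, 4 to 29 for day 4 against day 0 and 0 to 29 for any day. In each fit with 1 replicate left out, the share of all genes called was also lower than with all libraries. Where such a fit called no member, it called no other gene either. All called members kept their sign in all alternatives. Differences that turned sign were all uncalled. From day 2 to day 4, where most lay near 0, signs turned in 19 gene and setting pairs with GC correction and 21 with a replicate left out. From day 4 to day 6 these were Dhcr7 at -0.016 with the replicate block, Tm7sf2 at 0.11 without day 4 replicate 1 (-1.06 without replicate 2) and Ebp at 0.0077 without day 4 replicate 2 (-0.65 without replicate 1). With GC correction on the mean they were Fdps at 0.025, Tm7sf2 at 0.20, Srebf2 at 0.12 and Stard4 at -0.028, and with the block added Srebf2 at 0.037, Scap at 0.0081 and Stard4 at -0.0218. On the longest transcript they were Mvk at 0.012, Fdps at 0.20, Tm7sf2 at 0.25, Srebf2 at 0.057, Scap at 0.10, Stard4 at -0.25 and Elovl6 at -0.15. Srebf1 was at -0.29 from day 0 to day 2 without day 2 replicate 1 and at 1.28 without replicate 2. The cause was not tested. Each day had at most 2 libraries, and day 6 had 1.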
